A study of Homo sapiens with 12 samples.

Results

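The genes described here code for the enzymes of glycolysis, of pyruvate use and of the pentose phosphate pathway, taken from a fixed list of 34 gene symbols. Of these, 32 were measured, out of 19775 genes in all. SLC16A1 and SLC16A3, the lactate transporters of the list, had no probe set with a single symbol in the annotation used and were not analysed here. RNA was measured on 12 Affymetrix arrays of an established line of human non-small cell lung cancer, NCI-H1299, so that all 4 groups shared 1 genetic background. Parental cells were grown in culture with serum (3 arrays). Spheroid cells came from such monolayers moved to a stem cell medium for 7 to 10 days, after which the cells in suspension were placed in ultra low attachment flasks (3 arrays). Xenograft tumours grown from parental cells (3 arrays) and from spheroid cells (3 arrays) made up the other two groups. The host strain and sex, the site and age of the tumours, and whether each tumour grew in a separate animal are not given in the labels. The titles call the 3 arrays of each group biological replicates. The p-values measure only how these samples spread, which may be partly technical and, for the tumours, may not be the spread between animals. A single cell line limits every comparison to that line. A tumour also holds cells of its host, whose RNA human probes read only where they cross-hybridise.

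Glycolysis splits glucose into pyruvate. Its upper steps run through hexokinases and phosphofructokinases, which spend ATP, and aldolases, which do not. Its lower steps, from triose phosphate isomerase to pyruvate kinase, return ATP and NADH. Lactate dehydrogenase turns pyruvate into lactate, while the pyruvate dehydrogenase complex turns it into acetyl-CoA inside the mitochondria. The complex is switched off by pyruvate dehydrogenase kinases and on by its phosphatases. The pentose phosphate pathway branches off to make NADPH and ribose. Many glycolytic genes are known targets of HIF-1, the transcription factor that acts when oxygen is low, and of MYC.

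The values are log2 expression values of probe sets, and each gene was read from the probe set whose mean over the 12 arrays was highest. A difference of 1 log2 unit is a doubling. Values of different genes are not compared in level, because probe sets differ in affinity. A gene was called where limma's moderated test gave a p under 0.05 after Benjamini-Hochberg adjustment across the 19775 genes. Brackets give the standard error (SE) or the 95% interval of the fit.

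Arrays had medians from 5.85 to 6.03 and lower quartiles from 4.63 to 4.80. Parental culture arrays 1 and 2 stood apart: the 5′ control probe set of 18S rRNA read 6.96 and 10.50 there, against 12.21 to 13.34 on the other 10 arrays. The 3′ minus 5′ difference of the GAPDH control probe sets was 0.49 on parental culture array 1 and 0.019 to 0.13 on the other 11. Array 1 was the lowest of its group for 25 of the 32 members, and array 2 the highest for 19. The median SD of the members was 0.477 on parental and 0.256 on spheroid culture arrays, and 0.180 and 0.138 on the corresponding xenograft arrays. Calls and medians of the members that rest on the parental culture group are therefore given with and without these arrays, and most single differences that were not called with all arrays alone. EPCAM and CDH1, defining epithelial genes, lay below the lower quartile of the array on all 12 arrays, while the keratin gene KRT18 read 10.28 to 13.01. Among 6 measured markers of lung epithelium, no value was above 7.85.

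**Figure D1:**
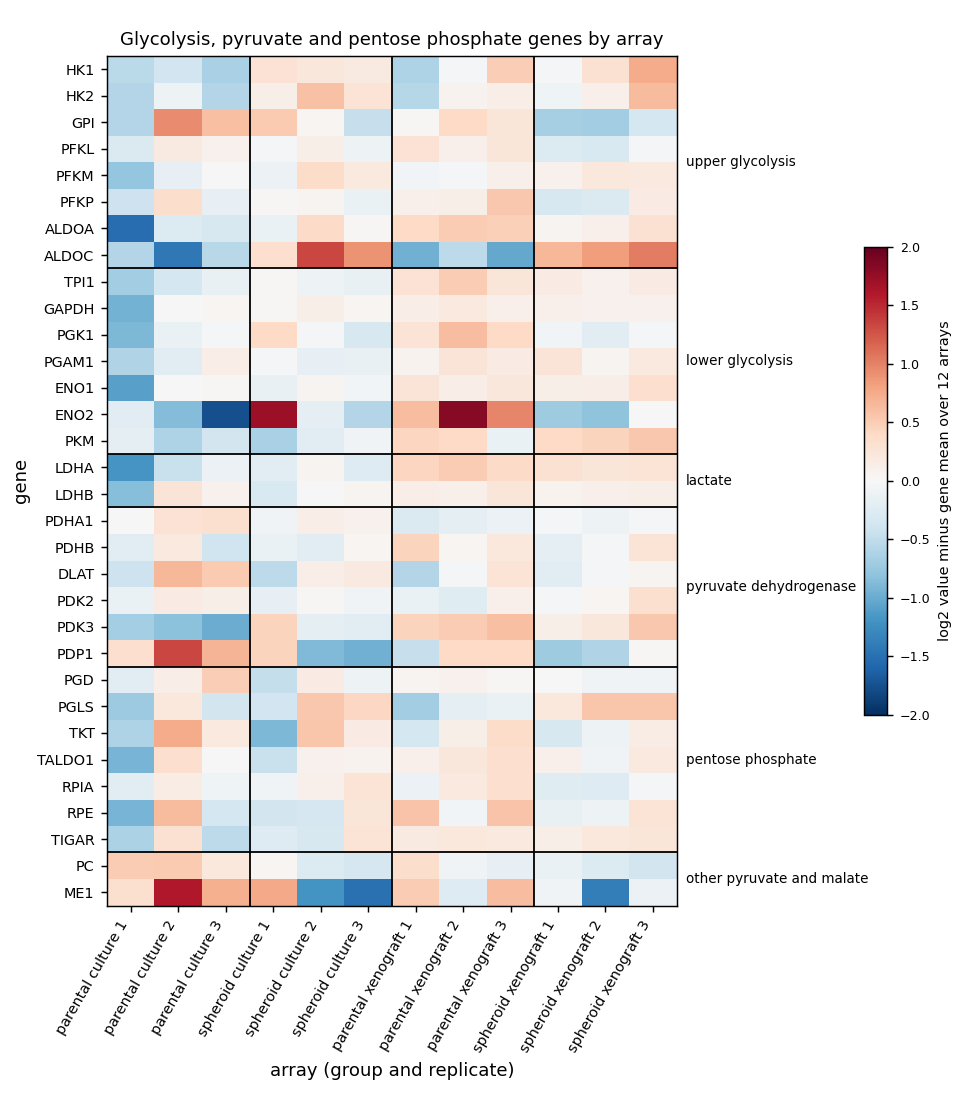
The colour shows each gene's log2 value minus its mean over the 12 arrays (rows, 32 genes in blocks by role; columns, arrays by group and replicate). Parental culture array 1 was the lowest of its group for 25 of the 32 genes. ALDOC is red in both spheroid groups and blue in both parental groups, with group means of 8.85 and 8.84 against 7.14 and 7.16.

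Across the 4 groups, the moderated F test called 3 of the 32 members: ALDOC (adjusted p = 0.00468), PDK3 (adjusted p = 0.00749) and PKM (adjusted p = 0.0483). The background was 5.09% of all genes. LDHA (adjusted p = 0.0505) and TPI1 (adjusted p = 0.0561) missed the threshold. The call of PKM was lost without parental culture array 3, or any array of spheroid culture or spheroid xenografts, or parental xenograft array 1 or 2 (adjusted p = 0.0545 to 0.132). It was also lost without parental culture arrays 1 and 2 together (adjusted p = 0.0902). Over 20 alternatives in arrays or processing it was lost in 15, with F test adjusted p from 0.0226 to 0.377. ALDOC and PDK3 were called without any 1 of the 12 arrays. In the comparisons of 2 groups, 5 genes were called at least once: ALDOC, PDK3, ALDOA, TPI1 and LDHA.

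The sequences upstream of 4 of these 5 genes are shown because each holds the pentamer ACGTG on either strand within 250 bases before its start. ACGTG is 1 form of the core of the HIF response element, and other forms, such as GCGTG, were not counted or marked. For each gene the window runs from its most upstream RefSeq start in GRCh38.p14 and is written 5′ to 3′ on the strand of the gene. Capitals mark ACGTG or its reverse complement CACGT, and CACGTG, the E-box bound by MYC and related factors, where they overlap. ALDOC lies at chr17:28576896-28577145 on the minus strand, PDK3 at chrX:24465036-24465285 on the plus strand, ALDOA at chr16:30064029-30064278 on the plus strand and LDHA at chr11:18394313-18394562 on the plus strand.
ALDOC: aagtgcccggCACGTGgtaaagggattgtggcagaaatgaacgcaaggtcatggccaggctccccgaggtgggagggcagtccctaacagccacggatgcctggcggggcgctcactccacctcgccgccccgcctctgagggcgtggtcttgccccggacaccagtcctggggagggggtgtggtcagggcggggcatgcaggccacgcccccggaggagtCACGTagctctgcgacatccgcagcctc
PDK3: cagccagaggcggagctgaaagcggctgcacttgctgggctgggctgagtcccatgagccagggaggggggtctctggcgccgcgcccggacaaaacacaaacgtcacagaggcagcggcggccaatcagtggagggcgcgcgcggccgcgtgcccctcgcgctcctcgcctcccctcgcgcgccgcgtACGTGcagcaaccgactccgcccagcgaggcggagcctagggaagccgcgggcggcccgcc
ALDOA: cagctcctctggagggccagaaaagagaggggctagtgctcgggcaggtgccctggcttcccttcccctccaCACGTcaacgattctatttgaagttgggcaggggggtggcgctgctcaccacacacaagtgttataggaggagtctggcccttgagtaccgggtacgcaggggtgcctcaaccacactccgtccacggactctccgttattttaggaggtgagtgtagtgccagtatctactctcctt
LDHA: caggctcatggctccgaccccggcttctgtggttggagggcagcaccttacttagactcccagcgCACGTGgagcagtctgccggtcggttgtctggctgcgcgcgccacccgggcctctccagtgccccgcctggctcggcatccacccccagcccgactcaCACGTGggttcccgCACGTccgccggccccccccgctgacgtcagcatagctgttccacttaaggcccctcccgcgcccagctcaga
On the strand of the gene, ALDOC holds ACGTG 1 time and CACGT 2 times, counting CACGTG under both, and LDHA holds them 2 and 3 times. PDK3 holds ACGTG 1 time and ALDOA holds CACGT 1 time. The match farthest from the start begins 240 bases upstream in ALDOC, 61 in PDK3, 178 in ALDOA and 185 in LDHA. ALDOA has 3 starts and LDHA has 2 in the table used, so other windows exist for them. Over the 31 members with an entry (PDP1 had none), 14 windows held the pentamer on either strand (45.2%), against 18.6% of 27326 genes. The 14 included HK2, GPI, GAPDH, PGK1, ENO2, PDHB, DLAT, PGD, TIGAR and PC beside the 4 shown. TPI1 and PKM had no match in this window. These letters are a description of the sequence and were not tested against binding.

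The clearest pattern among the members was that of ALDOC, which codes for the brain-type aldolase that splits fructose bisphosphate. Its log2 values in parental culture arrays 1 to 3 were 7.41, 6.57 and 7.44, and in spheroid culture arrays 1 to 3 they were 8.34, 9.33 and 8.89. In parental xenografts it read 7.03, 7.47 and 6.97, and in spheroid xenografts 8.66, 8.83 and 9.02. Every spheroid array was above every parental array, in culture as in xenografts. In culture ALDOC rose from 7.14 ± 0.497 in parental to 8.85 ± 0.497 in spheroid cells (SD, n = 3 each), a difference of 1.71 (SE 0.28), or 3.28-fold, with an adjusted p of 0.00994. Between xenografts it rose from 7.16 ± 0.272 to 8.84 ± 0.182 (SD, n = 3 each), a difference of 1.68 (SE 0.28; adjusted p = 0.0370). The difference in xenografts minus that in culture was -0.034 (95% interval -0.90 to 0.83). Xenograft minus culture was 0.018 (-0.59 to 0.63) in parental cells and -0.015 (-0.63 to 0.60) in spheroid cells. ALDOC was read by 1 probe set.

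The call of ALDOC in culture was lost without spheroid culture array 2 (adjusted p = 0.0619) and without parental culture arrays 1 and 2 together (1.41, adjusted p = 0.0772). Between xenografts it was lost without parental culture array 3, spheroid culture array 3 or any of the 6 xenograft arrays (adjusted p = 0.0605 to 0.213). With the replicate number as a block its adjusted p was 0.0573 over all 12 arrays and 0.0101 in a fit of the 6 xenograft arrays alone, where the difference was 1.68 (SE 0.15).

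ALDOA codes for the aldolase of muscle and most other tissues. Its values were 11.80, 13.05 and 13.00 in parental culture, 13.19, 13.71 and 13.36 in spheroid culture, and, among xenografts, 13.73, 13.83 and 13.80 from parental cells and 13.38, 13.43 and 13.63 from spheroid cells. In culture all spheroid arrays were above all parental arrays, and in xenografts all spheroid arrays were below all parental arrays. Neither difference was called: it was 0.80 (SE 0.28, adjusted p = 0.186) in culture and -0.30 (SE 0.28, adjusted p = 1.00) in xenografts. The difference between these differences was -1.10 (SE 0.39, adjusted p = 0.463). Without parental culture array 1 it was -0.69 (SE 0.23, adjusted p = 0.271).

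**Figure D2:**
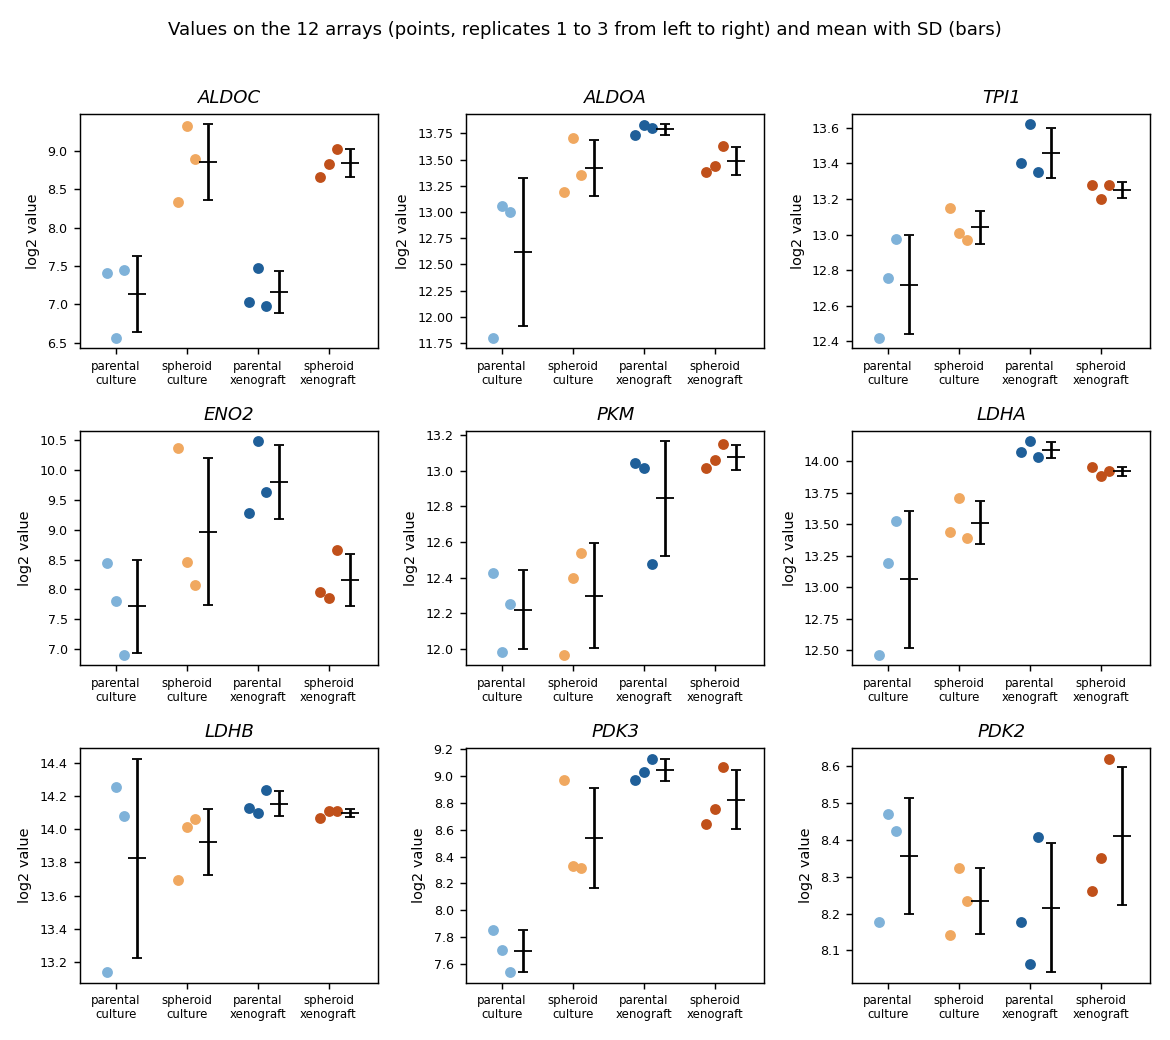
Points are log2 values (vertical axis, its own range in each panel) on the 3 arrays of each group for 9 genes, and bars are the mean with SD. ALDOC separates spheroid from parental arrays in culture and in xenografts. PDK3 is lowest in parental culture, at 7.54 to 7.85. LDHA is highest in parental xenografts, at 14.03 to 14.16.

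The comparison of spheroid with parental cells in culture set cells in suspension from stem cell medium against cells grown with serum. Medium, serum, attachment and the taking of cells in suspension differ together here and cannot be told apart. Of the 32 members, 2 rose (ALDOC and PDK3) and none fell, against 2.46% of all genes called, 0.885% higher and 1.58% lower. Epithelial markers moved with this comparison: the sum over the 5 measured was 35.0 to 36.6 in parental and 32.8 to 33.8 in spheroid culture. Of these KRT8 was called (8.96 to 7.53, adjusted p = 0.0109), while KRT18 (12.56 to 11.66, adjusted p = 0.228) and KRT19 (5.58 to 5.37, adjusted p = 0.665) were not, and EPCAM and CDH1 lay below the lower quartile on all arrays. Their part in the results was not tested. PDK3 codes for a kinase that inactivates pyruvate dehydrogenase. It read 7.85, 7.70 and 7.54 in parental and 8.97, 8.33 and 8.31 in spheroid culture, with no overlap. The difference was 0.84 (SE 0.19, adjusted p = 0.0412), or 1.79-fold. This call remained without parental culture array 1 (adjusted p = 0.0365) or spheroid xenograft array 3 (adjusted p = 0.0492). Without any 1 of the other 10 arrays it was lost (adjusted p = 0.0519 to 0.128). It was also lost under the mean of its 5 probe sets (0.55, adjusted p = 0.155), although all 5 had a difference above 0.

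The groups did not overlap for 5 members higher in spheroid culture (7.21% of all genes) and 1 lower (6.56%). The higher ones were ALDOC, PDK3, ALDOA and the hexokinases HK1 and HK2, which trap glucose in the cell as glucose phosphate. HK1 read 9.28 to 9.55 in parental and 10.11 to 10.23 in spheroid culture, a difference of 0.76 that was not called (SE 0.26, adjusted p = 0.166). HK2 differed by 0.76 (SE 0.24, adjusted p = 0.149), but its 2 other probe sets differed by -0.54 and -0.45, and the mean of the 3 by -0.076. The lower one was PC, pyruvate carboxylase, which feeds the citric acid cycle: it read 6.34 to 6.64 in parental and 5.79 to 6.17 in spheroid culture (-0.60, SE 0.17, adjusted p = 0.101). ME1, the cytosolic malic enzyme, and PDP1, a pyruvate dehydrogenase phosphatase, had the lowest differences, -1.52 (SE 0.56, adjusted p = 0.217) and -1.25 (SE 0.39, adjusted p = 0.136), with overlapping groups. After quantile normalisation of the deposited values again, HK2 and ALDOA were called higher and PC lower beside ALDOC and PDK3.

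The median difference of the members in culture was 0.11, with 23 of 32 above 0, and over all genes it was 0.070, with 61.7% above 0. Without parental culture array 1 the members' median was -0.032, with 15 of 32 above 0. Without parental culture array 2 it was 0.33, with 24 of 32 above 0 and 1 called, and without both arrays 0.018, with 17 of 32 above 0 and none called. The direction of this median thus changed with parental culture array 1.

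The comparison of spheroid with parental xenografts asked whether the cells differed as tumours. ALDOC alone was called among the 32 members (0.233% of all genes called, 0.0506% higher and 0.182% lower). The median difference of the members was -0.14, with 10 of 32 above 0, and that of all genes 0.019, with 54.2% above 0. The groups did not overlap for 8 members lower in spheroid xenografts (7.21% of all genes) and 3 higher (9.3%). The 8 lower ones were ENO2, PFKL, GPI, PGK1, TPI1, ALDOA, LDHA and PGD, and the 3 higher ones ALDOC, PGLS and PDHA1.

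ENO2, the enolase of neurons and endocrine cells, had the lowest of these differences. It read 9.28, 10.48 and 9.64 in parental and 7.95, 7.86 and 8.66 in spheroid xenografts, a difference of -1.64 (SE 0.56) that was not called (adjusted p = 0.380). GPI, which turns glucose phosphate into fructose phosphate, read 12.06, 12.43 and 12.26 against 11.36, 11.33 and 11.68 (-0.80, SE 0.35, adjusted p = 0.619). PGLS, the lactonase of the pentose phosphate pathway, read 9.48, 9.99 and 10.04 against 10.39, 10.73 and 10.73 (0.78, SE 0.28, adjusted p = 0.437). PFKL, the liver-type phosphofructokinase, differed by -0.41 (SE 0.16, adjusted p = 0.483), and PGK1, which makes the first ATP of glycolysis, by -0.53 (SE 0.24, adjusted p = 0.669).

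Deviations of xenograft arrays with the same replicate number correlated by 0.18, 0.21 and 0.48. Spheroid array 1 correlated by 0.26 with parental array 2, so the numbers do not clearly pair arrays 1 and 2. A fit of these 6 arrays with the number as a block, chosen after seeing the data, is given beside the result. It called 4 members, against 2.48% of all genes. ALDOC (adjusted p = 0.0101) and PGLS (0.78, SE 0.11, adjusted p = 0.0275) were higher in spheroid xenografts. ME1 (-0.81, SE 0.14, adjusted p = 0.0431) and GPI (-0.80, SE 0.14, adjusted p = 0.0437) were lower. ENO2 missed the threshold (adjusted p = 0.0527). The block in a fit of all 12 arrays called none of the members.

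**Figure D3:**
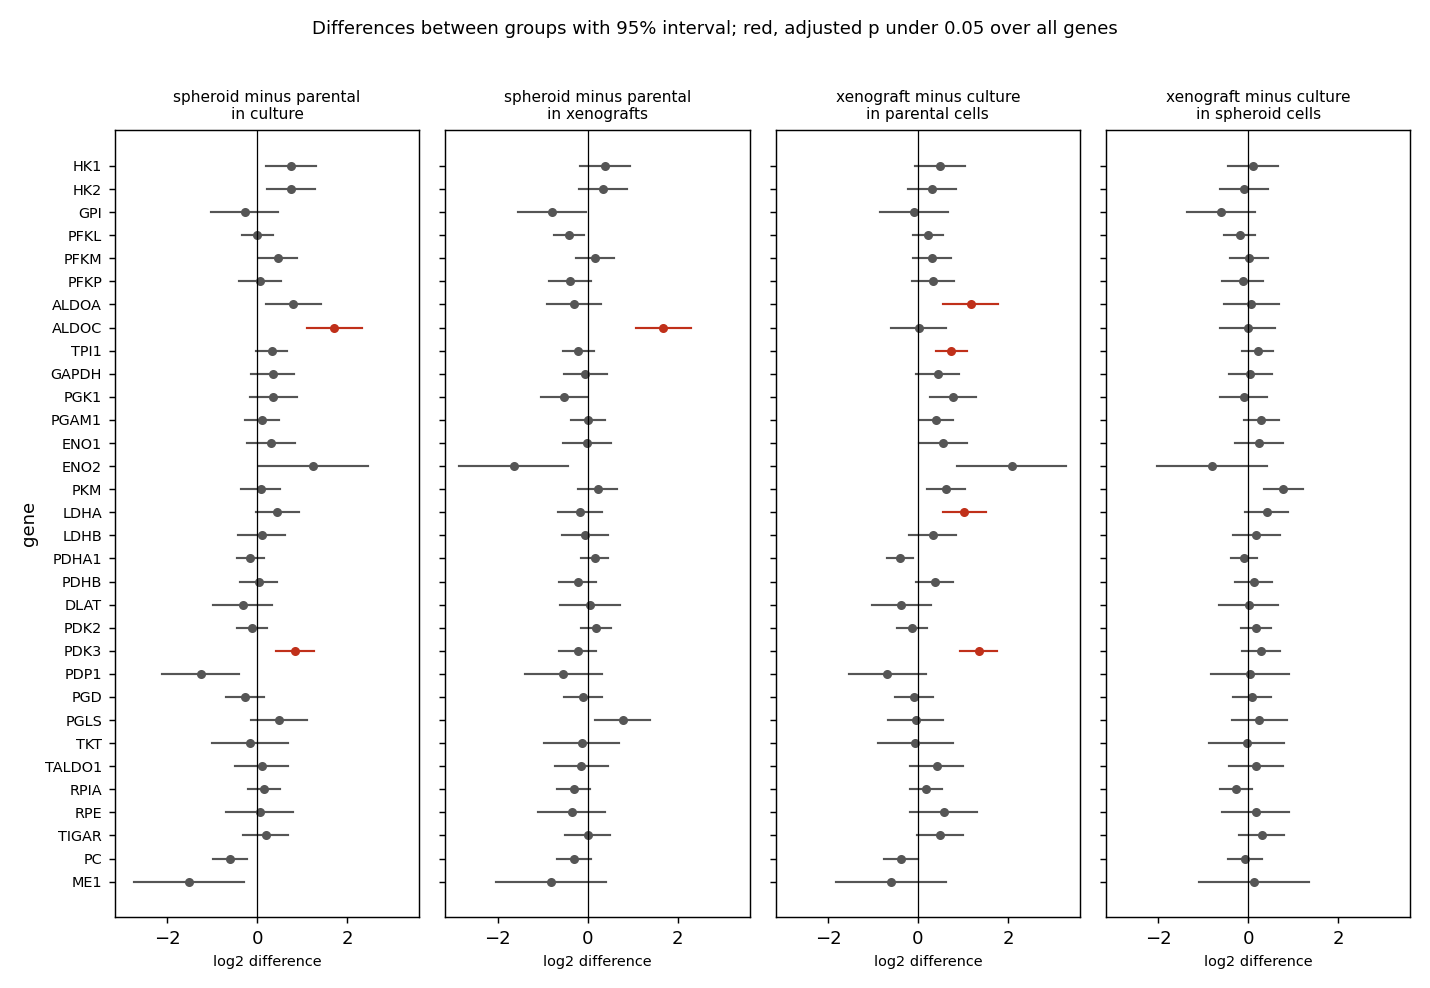
Each panel gives the log2 difference (horizontal axis) of the 32 genes in 1 comparison with its 95% interval, red where the adjusted p over all genes was under 0.05. Red points number 2, 1, 4 and 0 from left to right, and the lower glycolytic genes lie to the right of 0 in parental xenograft minus culture.

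The comparison of parental xenografts with parental culture asked what growth in the host changed, and it held the most calls. PDK3, LDHA, ALDOA and TPI1 rose and no member fell, so that 4 of the 32 were called (3.47% of all genes, 2% higher and 1.48% lower). Of the 7 lower glycolytic genes, TPI1, GAPDH, PGK1, PGAM1, ENO1, ENO2 and PKM, all had a difference above 0, with a median of 0.62, and 1 was called. The median over all members was 0.33, with 22 of 32 above 0, and over all genes -0.0091, with 48.2% above 0. The groups did not overlap for 9 members higher in xenografts (7.37% of all genes), of which 6 were lower glycolytic, and for 1 lower (6.28%).

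PDK3 read 7.85, 7.70 and 7.54 in parental culture and 8.97, 9.03 and 9.13 in parental xenografts. It rose by 1.35 (SE 0.19), or 2.54-fold, from 7.70 ± 0.155 to 9.04 ± 0.0802 (SD, n = 3 each; adjusted p = 0.00317). The call was kept without any 1 of the 12 arrays, and without parental culture arrays 1 and 2 together. The mean of its 5 probe sets differed by 0.71 (adjusted p = 0.0553). PDK2, a sister kinase, read 8.18, 8.47 and 8.43 in parental culture and 8.18, 8.06 and 8.41 in parental xenografts, a difference of -0.14 (-0.47 to 0.19). Its values in spheroid culture were 8.14, 8.32 and 8.24, and in spheroid xenografts 8.26, 8.35 and 8.62.

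LDHA codes for the lactate dehydrogenase subunit that favours lactate production. It read 12.46, 13.19 and 13.53 in parental culture and 14.08, 14.16 and 14.03 in parental xenografts. It rose by 1.03 (SE 0.22), or 2.04-fold, from 13.06 ± 0.544 to 14.09 ± 0.0632 (SD, n = 3 each; adjusted p = 0.0271). The call was lost without any 1 parental xenograft array (adjusted p = 0.0647 to 0.101). Without parental culture array 1 the difference was 0.73 (adjusted p = 0.0271), and without arrays 1 and 2 together it was 0.56 and the call was lost (adjusted p = 0.136).
LDHB, the other subunit, read 13.14, 14.25 and 14.08 in parental culture and 14.12, 14.10 and 14.24 in parental xenografts (0.33, -0.19 to 0.85). The 0.33 rests on parental culture array 1, the lowest of the 12, and without it the difference was -0.014. In spheroid culture LDHB read 13.69, 14.01 and 14.06, and in spheroid xenografts 14.07, 14.11 and 14.11.

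TPI1, triose phosphate isomerase, read 12.42, 12.76 and 12.97 in parental culture and 13.40, 13.62 and 13.35 in parental xenografts. It rose by 0.74 (SE 0.16), or 1.67-fold (adjusted p = 0.0248). The call was lost without parental xenograft array 1 (adjusted p = 0.0600) or 2 (adjusted p = 0.108) and without parental culture arrays 1 and 2 together (0.48, adjusted p = 0.189). Where probe sets that can share probes with other transcripts were left out, TPI1 differed by 0.25 (adjusted p = 0.642). The 1 probe set left there was dim, with a mean of 6.87 against 13.12 for the one used. Quantile normalisation again gave 0.50 (adjusted p = 0.118). Under the mean of its 3 probe sets TPI1 was called (0.59, adjusted p = 0.0132). ALDOA rose by 1.17 (SE 0.28), or 2.25-fold (adjusted p = 0.0422). That call was kept without parental culture array 1 (0.76, adjusted p = 0.0321), parental culture array 2 (1.39, adjusted p = 0.0127) or spheroid culture array 1, and lost without any 1 of the other 9 arrays (adjusted p = 0.0583 to 0.133). Without parental culture arrays 1 and 2 together it was 0.79 (adjusted p = 0.0866).
TPI1, LDHA and ALDOA were read by probe sets that can share probes with near-identical copies, so their values are uncertain in that respect.

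Among the members that were not called, ENO2 read 8.45, 7.80 and 6.91 in parental culture and 9.28, 10.48 and 9.64 in parental xenografts (2.08, SE 0.56, adjusted p = 0.0675). Its difference was 2.45 without parental culture array 1, and it was then called (adjusted p = 0.0469). PGK1 differed by 0.78 (SE 0.24, adjusted p = 0.109), and by 0.51 without parental culture array 1, and PKM, pyruvate kinase of muscle and tumours, by 0.62 (SE 0.20, adjusted p = 0.125). ENO1, the common enolase, differed by 0.56 (SE 0.24, adjusted p = 0.312) with all arrays and by 0.20 without parental culture array 1. GAPDH differed by 0.44 (SE 0.22, adjusted p = 0.406) and by 0.12 without that array. Its values of 13.91 to 15.06 lie near the top of the array scale. PDHA1, the catalytic subunit of pyruvate dehydrogenase, was the 1 member whose xenograft arrays all lay lower (-0.40, SE 0.13, adjusted p = 0.154).

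Without parental culture array 1 the median of the members was 0.14, with 21 of 32 above 0 and 5 called. Without array 2 it was 0.49, with 24 of 32 above 0 and 6 called. Without both it was 0.16, with 22 of 32 above 0 and 1 called, PDK3. Fewer cells of a type and less RNA per cell cannot be told apart in such bulk samples. Some markers of fibroblasts moved with this comparison. The sum over the 7 measured markers was 39.2 to 42.6 in parental culture and 44.3 to 48.5 in parental xenografts. It was 42.4 to 43.2 in spheroid culture and 43.6 to 44.6 in spheroid xenografts. Of the 7, COL3A1 (5.23 to 7.29, adjusted p = 0.0126) and FAP (5.07 to 7.27, adjusted p = 0.000850) were called. COL1A1 (8.17 to 8.62), COL1A2 (6.01 to 6.75), DCN (6.80 to 6.96) and PDGFRB (5.69 to 5.70) were not called. LUM stayed below the lower quartile of the array on all 12 arrays. The sum over the 5 epithelial markers was 35.0 to 36.6 in parental culture and 31.1 to 33.2 in parental xenografts. KRT8 (8.96 to 7.19, adjusted p = 0.00278) and KRT18 (12.56 to 10.85, adjusted p = 0.0191) fell, while KRT19 was not called (5.58 to 5.62, adjusted p = 0.977). The part of these in the results was not tested.

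**Figure D4:**
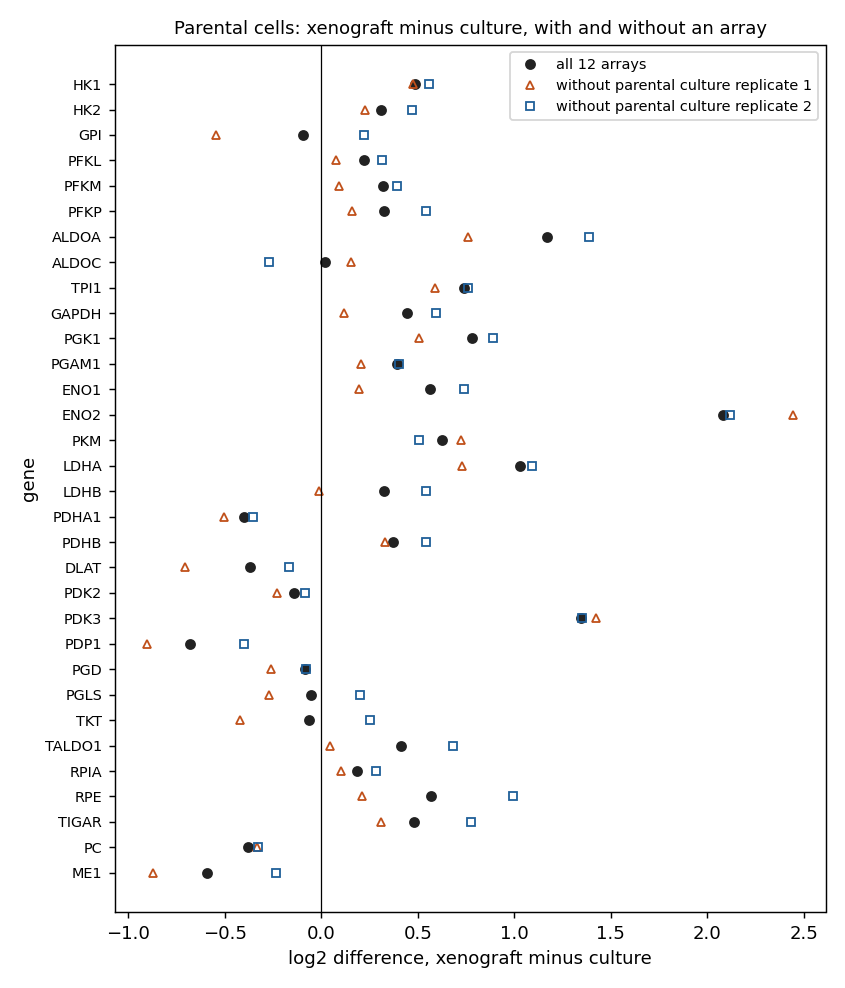
The horizontal axis gives the log2 difference of parental xenografts minus parental culture for the 32 genes, with all 12 arrays (filled circles), without parental culture array 1 (triangles) and without array 2 (squares). PDK3 lies near 1.35 under each. LDHA moves from 1.03 to 0.73 without array 1.

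In spheroid cells, xenograft minus culture gave no called member (0 of 32 with limma at the adjusted threshold; 0.0202% of all genes). At an unadjusted p under 0.05, 1 member passed, against 7.39% of all genes. It was PKM, which read 11.97, 12.40 and 12.54 in spheroid culture and 13.02, 13.06 and 13.15 in spheroid xenografts (0.77, SE 0.20, adjusted p = 0.219). In parental cells PKM read 12.43, 11.99 and 12.25 in culture and 13.04, 13.01 and 12.47 in xenografts. LDHA had the next lowest p (0.41, SE 0.22, adjusted p = 0.778), with values of 13.44, 13.71 and 13.39 in spheroid culture and 13.95, 13.88 and 13.93 in spheroid xenografts. Spheroid arrays of the same number deviated together. The fit of these 6 arrays with the number as a block, chosen after seeing the data, called PKM (0.77, SE 0.13, adjusted p = 0.0309, against 2.99% of all genes).

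The median of the members was 0.076, with 21 of 32 above 0, and that of all genes -0.047, with 41.3% above 0. The groups did not overlap for 6 members higher in spheroid xenografts (8.85% of all genes), which were PKM, LDHA, LDHB, TPI1, PGAM1 and ENO1, and for 0 lower (9.85%). PDK3 differed by 0.28 (-0.13 to 0.70) and ALDOA by 0.066 (-0.54 to 0.67). TPI1 read 13.15, 13.01 and 12.97 in spheroid culture and 13.28, 13.20 and 13.28 in spheroid xenografts.

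The interaction tested whether the change from culture to xenograft differed between spheroid and parental cells. It called 0 of the 32 members with limma (0.137% of all genes, 0.0657% higher and 0.0708% lower), and 5 had an unadjusted p under 0.05, against 7.41% of all genes. The 2 lowest p were those of PDK3 (-1.06, SE 0.27, adjusted p = 0.209) and ENO2 (-2.89, SE 0.79, adjusted p = 0.255). PDK3 in spheroid xenografts read 8.64, 8.76 and 9.07. The calls of PDK3, LDHA, TPI1 and ALDOA in parental cells are thus not shown to differ from the values in spheroid cells. The 4 comparisons share groups, in particular parental culture, and are not independent of each other.

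By role, the 8 upper glycolytic genes had a median difference of 0.61 for spheroid minus parental in culture (7 of 8 above 0) and 0.31 for parental xenograft minus culture (7 of 8 above 0). These medians were 0.31 and 0.16 without parental culture array 1. The median was -0.072 for spheroid minus parental in xenografts (4 of 8 above 0) and -0.062 for spheroid xenograft minus culture (3 of 8 above 0). The median of the 7 lower glycolytic genes in parental xenografts was 0.51 without that array, with all 7 above 0. In culture all 7 lay above 0, with a median of 0.32, and without that array 5 of 7 did, with a median of 0.086. PFKM, PFKL and PFKP, the phosphofructokinases that commit sugar to glycolysis, were called in no comparison. Of the 6 pyruvate dehydrogenase genes, PDK3 was the 1 called in culture and in parental xenografts. The pyruvate dehydrogenase subunits PDHA1, PDHB and DLAT were not called in any comparison. DLAT, the acetyltransferase core, had group means between 9.41 and 9.78, and PDHB, the other part of the catalytic subunit, between 11.01 and 11.38. PC and ME1 were not called in any comparison with all 12 arrays.

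The 7 pentose phosphate genes, PGD, PGLS, TKT, TALDO1, RPIA, RPE and TIGAR, were not called in any comparison with all 12 arrays. Their differences ran from -0.27 to 0.48 for spheroid minus parental in culture, -0.35 to 0.78 in xenografts, -0.083 to 0.57 for parental xenograft minus culture and -0.28 to 0.29 for spheroid xenograft minus culture. Their median in culture was 0.10, and -0.27 without parental culture array 1. In parental xenografts it was 0.18, and 0.046 without array 1 or 0.29 without array 2, where RPE (0.99, adjusted p = 0.0416) and TIGAR (0.78, adjusted p = 0.0206) were called. TKT and TALDO1, the transketolase and transaldolase of the branch that rebuilds glycolytic sugars, had wide intervals. For spheroid minus parental in culture that of TKT was -0.99 to 0.68, and that of TALDO1 -0.49 to 0.69. PGD, which makes NADPH, differed by -0.27 (-0.69 to 0.15) in culture and by -0.10 (-0.52 to 0.32) between xenografts. RPIA and RPE, which interconvert pentose phosphates, had group means of 9.48 to 9.80 and 10.02 to 10.59. TIGAR, a phosphatase that lowers fructose 2,6-bisphosphate, had group means of 9.93 in parental culture and 10.41 in both xenograft groups.

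Paired family members were also compared as the difference of their log2 values on the same array, in 7 pairs. Only the shift between groups is read. The difference PFKM minus PFKL was 1.66 to 2.03 in parental culture, 2.06 to 2.42 in spheroid culture, and 1.80 to 1.99 and 2.35 to 2.65 in the corresponding xenografts, so that the spheroid arrays did not overlap the parental arrays in either condition. The shift, spheroid minus parental within condition, was 0.52 (two-sided exact permutation p = 0.005, the smallest that 400 arrangements can give; adjusted p = 0.035 over 14 tests). LDHB minus LDHA was 0.55 to 1.06 in parental culture and -0.061 to 0.20 in parental xenografts, and 0.26 to 0.66 in spheroid culture against 0.11 to 0.22 in spheroid xenografts. The shift, xenograft minus culture within cell type, was -0.47 (two-sided exact permutation p = 0.005, adjusted p = 0.035). Within 1 cell type or condition, an exact permutation of 3 against 3 arrays cannot go below p = 0.1, and the pairs PFKM/PFKL and LDHB/LDHA reached it for these factors.

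The other 12 tests did not pass. ALDOC minus ALDOA shifted by 1.45 from parental to spheroid cells (exact permutation p = 0.015, adjusted p = 0.07), and PDK3 minus PDK2 by 0.80 from culture to xenograft (exact permutation p = 0.045, adjusted p = 0.158). Both shifts that passed were kept without any of 5 single arrays and had an adjusted p of 0.07 without any 1 of the other 7, parental culture arrays 2 and 3, spheroid culture arrays 2 and 3 and the 3 spheroid xenograft arrays. Without 1 array 200 arrangements remain, and a test alone at their smallest p of 0.005 has an adjusted p of 0.07. The shifts without 1 array were 0.48 to 0.58 for PFKM minus PFKL and -0.52 to -0.39 for LDHB minus LDHA. Without parental culture arrays 1 and 2 together, PFKM minus PFKL shifted by 0.41 (exact permutation, adjusted p = 0.117) and LDHB minus LDHA by -0.36 (exact permutation, adjusted p = 0.0875). Only 80 arrangements remain there, with a smallest p of 0.0125, so that fewer than 4 tests at that p could not pass. Under the mean of all probe sets both had an adjusted p of 0.07.

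**Figure D5:**
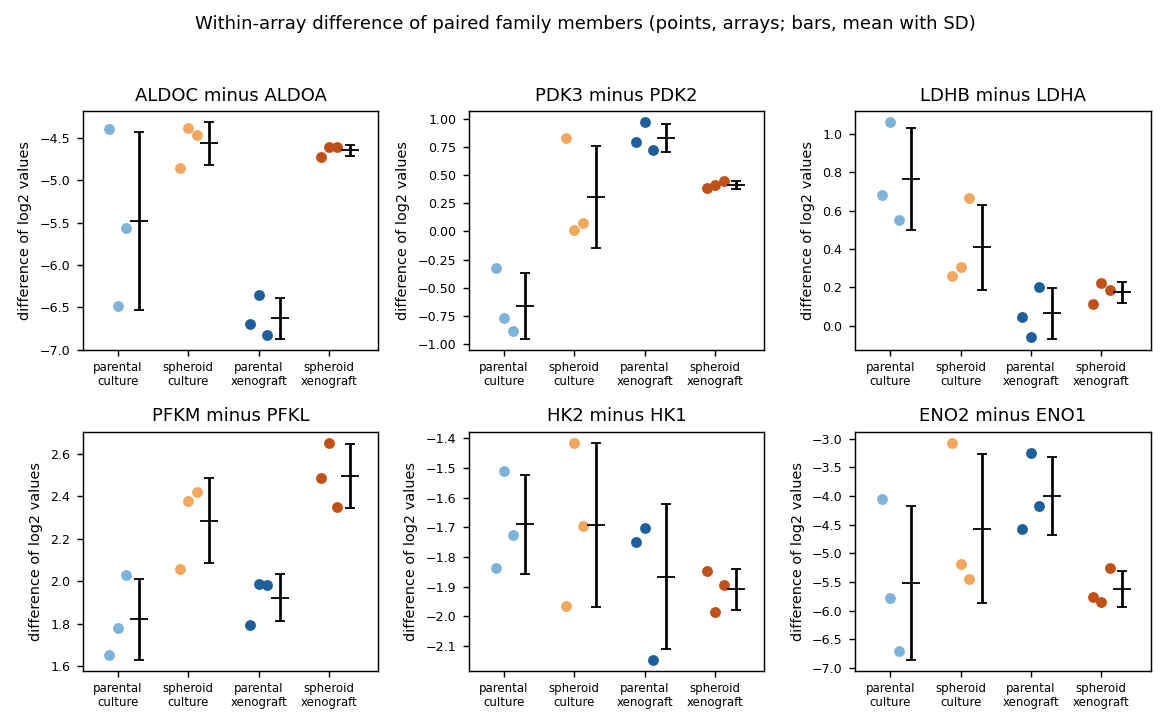
Each panel plots the difference of the log2 values of 2 family members on the same array (vertical axis) by group, with points for the arrays and bars for the mean with SD. PFKM minus PFKL is 1.66 to 2.03 in parental culture and 2.06 to 2.42 in spheroid culture. LDHB minus LDHA is -0.061 to 0.20 in parental xenografts and 0.55 to 1.06 in parental culture.

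Other genes of these pathways came from a list of 58, of which 53 were measured. In culture 1 was called higher and 1 lower in spheroid cells (0.885% and 1.58% of all genes). ENO3, the enolase of skeletal muscle, rose from 6.81 ± 0.0665 to 8.20 ± 0.382 (SD, n = 3 each; 1.39, SE 0.18, adjusted p = 0.00436). Its call was kept without parental culture array 1, array 2 or both (adjusted p = 0.00544, 0.00631 and 0.0333). The sum over the 5 other skeletal muscle markers was 27.0 to 29.0 in parental and 28.5 to 29.5 in spheroid culture. Of these MYH2 alone lay below the lower quartile on all 12 arrays, and TNNT3 read 7.61 to 8.44. ME3, a mitochondrial malic enzyme, fell from 9.22 ± 0.163 to 8.05 ± 0.272 (SD, n = 3 each; -1.17, SE 0.17, adjusted p = 0.00606), and its call was kept without these arrays (adjusted p = 0.00423, 0.00916 and 0.0301). Between xenografts, in spheroid cells and in the interaction 0 were called with limma, and 7, 6 and 9 of the 53 had an unadjusted p under 0.05 (7.34%, 7.39% and 7.41% of all genes).

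In parental xenografts 4 of the 53 were called higher and 2 lower than in parental culture (2% and 1.48% of all genes). The counts were 4 and 3 without parental culture array 1, 5 and 2 without array 2, and 2 and 3 without both. PDK1, another pyruvate dehydrogenase kinase, rose from 7.68 ± 0.738 to 10.02 ± 0.536 (SD, n = 3 each), a difference of 2.33 (SE 0.38), or 5.04-fold (adjusted p = 0.00710). PFKFB3 and PFKFB4 code for enzymes that set the level of fructose 2,6-bisphosphate, the activator of phosphofructokinase. PFKFB3 rose by 1.79 (SE 0.31, adjusted p = 0.00998) and PFKFB4 by 1.66 (SE 0.36, adjusted p = 0.0296). ENO3 rose by 0.87 (SE 0.18, adjusted p = 0.0241). Without both parental culture arrays the calls of PFKFB4 (adjusted p = 0.105) and ENO3 (adjusted p = 0.113) were lost. PCK2, a mitochondrial enzyme of glucose synthesis, fell by 1.63 (SE 0.32, adjusted p = 0.0193), from 9.04 ± 0.861 to 7.41 ± 0.269 (SD, n = 3 each). In spheroid cells PDK1 read 8.54 ± 0.349 in culture and 8.95 ± 0.499 in xenografts (SD, n = 3 each). The median difference over the 53 was 0.048 in parental xenografts against culture, beside -0.0091 over all genes.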

How the data were processed

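RNA from 12 samples in 4 groups of 3 was measured on arrays of 54675 probe sets. The deposited values are log2 expression values made by the authors with RMA in affy (an R package), according to the submitters' processing notes, with no versions given there; precision is limited by the array number. The log2 scale was read from the deposited range. In the probe annotation 41097 probe sets had 1 symbol, 1801 several and 11777 were not named; 41043 were matched by gene number to a GRCh38.p14 gene table. The 62 control probe sets were left out, and each of 19775 genes was read from its probe set with the highest mean. The 32 members had 75 probe sets. No filter on dim values was applied.

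With R 4.3.3 and limma 3.58.1, a mean for each group was fitted over all 12 arrays, leaving 8 residual degrees of freedom, and moderated with eBayes, and p-values were Benjamini-Hochberg adjusted over all genes (two-sided). The median SE was 0.20 for a group difference and 0.28 for the interaction. Scripts were tested on simulated data. Values on all arrays are given for each called member and for both genes of its pair, and where a comparison had none, the 2 members of lowest p are given; other pathway genes were named where called, at most 5 by size; further members were named after their values were seen. The members and lists were chosen with earlier results of these data known. Pairs of family members were compared by exact permutation within cell type or condition.

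Replicate numbers come from the titles. Deviations from the group means correlated by 0.18, 0.21 and 0.48 for arrays of the same number within xenografts, and by 0.34, 0.33 and 0.43 within spheroid cells. They correlated by 0.33, -0.24 and -0.30 in culture and 0.19, -0.45 and -0.43 within parental cells, where the numbers were not taken to pair arrays. Within xenografts, spheroid array 1 also correlated by 0.26 with parental array 2, and spheroid array 2 by 0.15 with parental array 1. Alternatives were the replicate block, quantile normalisation again, median centring, the mean of all probe sets, a filter on dim genes, no probe sets ending in _x_at or _s_at, a trended and robust eBayes fit, only the groups compared, and leaving out arrays. Of 45 cell type markers, 41 were measured. Promoter windows are RefSeq sequences of GRCh38.p14, matched by symbol for 31 of the 32 members.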

Additional observations from a re-analysis of the deposited data

Results flagged for a closer look

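ALDOA differed in opposite directions in culture and in xenografts. All 3 spheroid arrays lay above all 3 parental arrays in culture (13.19 to 13.71 against 11.80 to 13.05), and all 3 lay below them in xenografts (13.38 to 13.63 against 13.73 to 13.83). The test of the difference, spheroid minus parental in xenografts minus the same in culture, gave -1.10 (SE 0.39) and did not pass with limma (adjusted p = 0.463). It was -0.98 after quantile normalisation again (adjusted p = 0.0705) and -0.69 without parental culture array 1 (adjusted p = 0.271). The other probe sets of ALDOA that were measured had differences of 0.81 and 1.01 in culture and -0.30 and -0.54 in xenografts.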

How the results depend on the processing

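No called difference changed direction under the alternatives run. The median of the members in culture did (0.11, and -0.032 without parental culture array 1). Among the 32 members, uncalled ones included, the difference in culture changed sign for 8 without parental culture array 1 (LDHB, ENO1 and TALDO1 among them), 3 without array 2, 6 without both and 3 with the mean of all probe sets. In parental cells it did so for 1, 4, 2 and 1, and with the mean of all probe sets for 0 between xenografts and 5 in spheroid cells, PDK3 among them (0.28 to -0.027). Members called for spheroid minus parental in culture (2) numbered 1 with the replicate block, 5 after quantile normalisation again, 1 with median centring, 1 with the mean of all probe sets, 1 with the trended and robust fit, 0 in a fit of only the groups compared, 0 there with the replicate block, 0 without parental culture arrays 1 and 2, and 0 to 3 without 1 array. Between xenografts (1) they numbered 0 with the replicate block, 0 with median centring, 0 with _x_at and _s_at probe sets left out, 4 with the replicate block in a fit of only the groups compared, and 0 to 1 without 1 array. In parental xenografts against culture (4) they numbered 2 with _x_at and _s_at probe sets left out (which leaves 11 members with no probe set, ALDOA and LDHA among them), 1 in a fit of only the groups compared, 0 there with the replicate block, 1 without parental culture arrays 1 and 2, and 1 to 6 without 1 array. In spheroid xenografts against culture (0) the replicate block in a fit of only the groups compared gave 1, and leaving out any 1 array gave 0. The interaction stayed at 0 in the 20 alternatives run, and the F test (3) gave 2 to 6 without 1 array. Paired ratios past the threshold (2) numbered 0 with the mean of all probe sets, 3 after quantile normalisation again and 0 without parental culture arrays 1 and 2. Without 1 array they numbered 0 to 3. With _x_at and _s_at probe sets left out, PFKM, PFKL, LDHA and LDHB had no probe set. Neither of the 2 pairs could be run there, so that setting gives no result about them. Over all genes the alternatives moved the count of calls by more than 1.5 times in every comparison: 487 in culture ranged from 15 (only the groups compared) to 1098 (quantile normalisation again), 46 between xenografts from 4 (without spheroid xenograft array 2) to 491 (replicate block, only the groups compared), 687 in parental cells from 68 (replicate block, only the groups compared) to 1591 (without parental culture array 2), 4 in spheroid cells from 1 (without spheroid culture array 2) to 591 (replicate block, only the groups compared), 27 in the interaction from 2 (without spheroid culture array 3, or spheroid xenograft array 1 or 2) to 186 (without parental culture array 2), and 1007 of the F test from 461 (without spheroid culture array 2) to 1861 (without parental culture array 2). The replicate block in a fit of only the groups compared, and the ratios, role medians and the other pathway genes without parental culture arrays 1 and 2 were chosen after seeing the data. In culture and in parental cells the numbers were not taken to pair arrays. Over the 22 alternatives the adjusted p of ALDOC ran from 0.00554 to 0.116 in culture and from 0.00901 to 0.213 between xenografts, and that of PDK3 from 0.0365 to 0.216 in culture and from 0.00150 to 0.105 in parental xenografts. That of LDHA in parental xenografts ran from 0.00696 to 0.284, of TPI1 from 0.0132 to 0.642 and of ALDOA from 0.00334 to 0.250. The cause of these changes was not tested, beyond the fewer arrays or probe sets some of them use. The ratio of SLC16A3 to SLC16A1 was planned and was not run, because neither had a probe set with a single symbol in the annotation used.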

Other observations

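The summed log2 values of 6 endothelial markers were 32.0 to 35.0 in parental culture and 32.0 to 34.2 in parental xenografts, and those of 5 myeloid markers 26.0 to 28.9 and 26.5 to 28.9. KDR, a defining gene of endothelium, lay below the lower quartile of the array on all 12 arrays. HBB, the beta globin gene of red cells, had group means of 6.92 and 6.94 in parental and spheroid culture and of 7.78 and 7.46 in the corresponding xenografts, and was not called (limma adjusted p = 0.170 in parental and 0.796 in spheroid cells). MYH2, a skeletal muscle gene, and ADIPOQ, an adipocyte gene, lay below the lower quartile on all 12 arrays, each alone on its list. TNNT3 of the muscle list (7.61 to 8.44) and PLIN1 of the adipocyte list (5.82 to 6.66) lay below it on 0 arrays. LEP and FABP4 of the adipocyte list did so on 3 and 4 arrays. ENO3, counted above with the other pathway genes, is also on the skeletal muscle list, and CKM of that list had group means of 5.54 to 5.78.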
